A study of Mus musculus with 8 samples.

Results

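The genes described here are 49 that build and run the DNA replication machinery or drive the G1 to S transition of the cell cycle. They comprise 15 genes of origin licensing, 7 of origin firing, 6 of the polymerases and primase, 11 of the replication fork, 4 of nucleotide supply and 6 regulators of the transition. Members were chosen by gene symbol: a probe set belonged to the group where the platform annotation gave it exactly 1 symbol and that symbol was on the list. This found 108 of the 45037 probe sets tested, covering 49 of 18193 genes. The list of symbols, like the other gene lists below, was drawn up with earlier results of these data known. A share of a list set against all genes is therefore a description, not an independent test.

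RNA was measured on 8 Affymetrix arrays of mouse embryonic fibroblasts of strain C57BL/6. All cells were null for Stat5, the transcription factor downstream of the growth hormone receptor, and all carried a STAT5 mutant put back by a retrovirus. The EA mutant had an EE to AA change, which the labels place in a binding domain, and the YF mutant had the change Y694F. Each mutant was left unstimulated or received growth hormone for 120 minutes, which gave 4 groups of 2 arrays: EA without hormone, EA with hormone, YF without hormone and YF with hormone. No group had wild-type STAT5 or an empty vector, so EA and YF could be set only against each other. Each group was done in biological duplicate, as the series describes it. Whether the cells of a mutant came from separate infections, or from a pool or a clone, is not given in the sources used here, so mutant and cell population cannot be told apart, and p-values measure the spread between these arrays.

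Before S phase the origin recognition complex (Orc) recruits Cdc6 and Cdt1, which load the Mcm2 to Mcm7 helicase onto DNA, and geminin (Gmnn) blocks Cdt1 once the origin has been licensed. In S phase Cdc7 and Cdk2 with cyclin E activate the helicase together with Cdc45, the GINS complex and Mcm10. DNA polymerases then copy the strands with the sliding clamp PCNA, its loader RFC and the single-strand binding protein RPA, and transcription of many of these genes is driven by E2F factors at the G1 to S boundary. Embryonic fibroblasts in culture divide, so these genes are active in them, and in bulk RNA a smaller share of cells in S phase and less RNA per cell cannot be told apart.

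Values are log2 expression levels, so a difference of 1 is a factor of 2 and a level below 4 lies in the dense low group that holds 55% of probe sets. A gene was read from its brightest probe set, and no level is compared between genes, since probe sets differ in response. Where 4 values are given for a mutant, they are replicates 1 and 2 without hormone and then replicates 1 and 2 with it. Differences between mutants are EA minus YF, so a negative value is lower in EA, and hormone differences are hormone minus none. A difference was called where limma's adjusted p, over all 45037 probe sets, was under 0.05. Of the 49 genes, 47 had a mean of 4 or more over the 8 arrays; Orc1 and E2f2 lay below it. Replicate arrays correlated at 0.996 to 0.998 over all probe sets. The arrays of EA and YF stood apart along the leading principal component, which took 69.9% of the variance. On the next component, with 12.6%, YF with hormone replicate 1 stood at -55.8, against -3.28 for its replicate and 25.8 and 32.6 for YF without hormone. Over the members above the low group, replicate arrays of YF with hormone differed with an SD of 0.29, against 0.20 to 0.22 in the other groups. Stat5a was higher on the YF arrays, with group means of 7.88 and 8.19 against 5.10 and 4.57 on the EA arrays by its probe set 1450259_a_at; the other Stat5a and Stat5b probe sets lay in the low group.

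Replication genes stood lower in EA than in YF cells. With the hormone groups averaged, 23 of the 49 genes were called lower in EA and 2, Rpa3 and Orc5, were called higher by limma. The share called lower was 46.9%, against 10.5% of all genes, and among genes with a mean of 4 or more it was 48.9% of the 47 members against 16.6%. The share called higher was 4.08% of the members, against 12.3% of all genes and 19.7% of genes above the low group. The estimate was below 0 for 47 of the 49 genes, and the median was -0.32 on the log2 scale, against 0.02 for all genes and 0.05 for those with a mean of 4 or more. All 4 EA arrays lay below all 4 YF arrays for 27 members, or above them for 2; that separation occurred downward for 17.5% and upward for 21.0% of genes above the low group. Without EA without hormone replicate 2, or without YF without hormone replicate 1, the number of members called was 16 in place of 25, with 15 lower and 1 higher in both cases, where 8.05% and 8.21% of all genes were called lower.

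**Figure D1:**
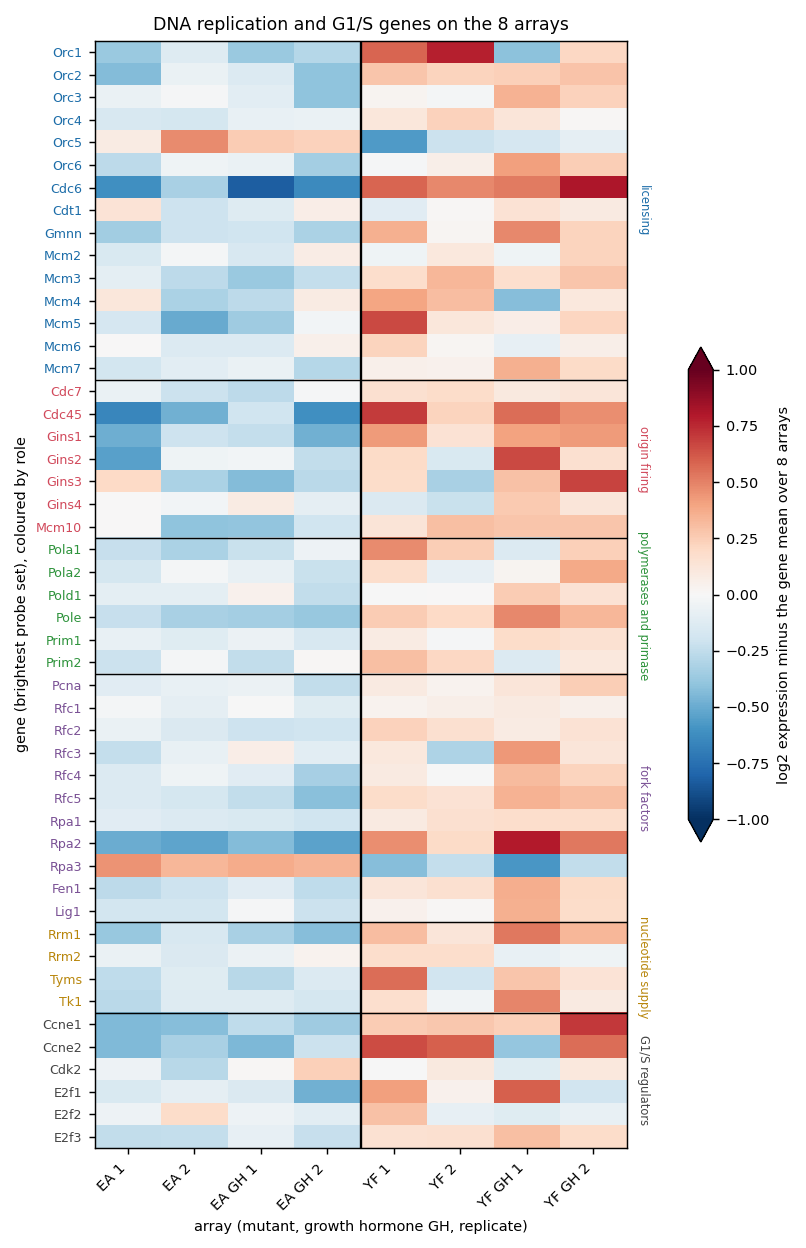
Heat map of the 49 genes (rows, ordered by role) on the 8 arrays (columns), coloured by the log2 level minus the gene's mean over the 8 arrays. Most rows are below their mean on the 4 EA arrays and above it on the 4 YF arrays, and Rpa3 and Orc5 run the other way.

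Among the licensing genes, 6 of 15 were called lower in EA, 1 higher, and the median difference was -0.32. Cdc6, the loader ATPase that brings the helicase to the origin, had the largest difference of all members on brightest probe sets. Its levels (probe set 1417019_a_at) were 8.53 and 8.82 in EA without hormone and 8.32 and 8.51 in EA with hormone, against 9.73 and 9.63 in YF without hormone and 9.67 and 9.95 in YF with hormone. Every EA array lay below every YF array, by more than the replicates differed. The difference was -1.20 on the log2 scale (SE 0.10, limma adjusted p = 0.0016), which is 2.29-fold lower in EA.

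Its partner Cdt1 had no such gap. Cdt1 read 12.19, 11.85, 11.93 and 12.12 on the EA arrays and 11.94, 12.07, 12.20 and 12.15 on the YF arrays, which overlapped, and the difference was -0.07 with a 95% interval of -0.30 to 0.17. Geminin, the inhibitor of Cdt1, read 9.21 and 9.35 in EA without hormone, 9.36 and 9.24 in EA with hormone, 9.91 and 9.58 in YF without hormone and 10.04 and 9.78 in YF with hormone. The EA arrays were all lower, and the geminin difference was -0.54 (SE 0.10, limma adjusted p = 0.0235).

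The subunits of the origin recognition complex were called in both directions. Orc2 read 10.09, 10.45, 10.38 and 10.12 on the EA arrays and 10.74 to 10.80 on the YF arrays, with no overlap and differing by -0.52 (SE 0.10, limma adjusted p = 0.0259). Orc4 read 11.08, 11.07, 11.17 and 11.18 in EA and 11.36, 11.47, 11.36 and 11.26 in YF and was also called lower, at -0.24 (SE 0.04, limma adjusted p = 0.0148). Orc5, another core subunit, was called higher: 9.29, 9.68, 9.46 and 9.44 on the EA arrays against 8.64, 9.0, 9.04 and 9.12 on the YF arrays, with no overlap and differing by 0.52 (SE 0.12, limma adjusted p = 0.0409). Orc3 read 10.83 and 10.88 in EA without hormone, 10.79 and 10.49 in EA with hormone, 10.92 and 10.88 in YF without hormone and 11.24 and 11.13 in YF with hormone. With hormone its EA arrays lay below its YF arrays and it was called lower at -0.54 (limma adjusted p = 0.0350), while the averaged difference of -0.29 did not pass (limma adjusted p = 0.0557), nor did Orc6 at -0.36 (limma adjusted p = 0.0521). Orc1, the subunit whose level follows the cell cycle, was at -0.58 inside the low group (limma adjusted p = 0.0648), where the size of a difference is uncertain.

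Of the Mcm2 to Mcm7 helicase, Mcm3 and Mcm7 were called lower on their brightest probe sets. Mcm3 read 11.28, 11.11, 11.003 and 11.13 in EA and 11.55, 11.70, 11.54 and 11.65 in YF, which differed by -0.48 (SE 0.06, limma adjusted p = 0.0073) with no overlap. Mcm7 read 12.84, 12.92, 12.96 and 12.74 in EA and 13.07, 13.07, 13.38 and 13.22 in YF, which differed by -0.32 (SE 0.07, limma adjusted p = 0.0297), again without overlap. Mcm2, Mcm4, Mcm5 and Mcm6 stood at -0.13, -0.19, -0.53 and -0.11 and did not pass. The brightest probe sets of these 4 genes end in _x_at or _s_at, endings that Affymetrix gives to probe sets that may also bind related transcripts. Those of the called genes Mcm7, Rfc2, Rfc4, Fen1 and Ccne1 have such endings too. Other probe sets of Mcm4, Mcm5 and Mcm6 were called lower: Mcm4 at -0.33, Mcm5 at -0.81 and -1.12, and Mcm6 at -0.26 (limma adjusted p = 0.0014, 0.0436, 0.0051 and 0.0495). Neither of the 2 Mcm2 probe sets above the low group was called.

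**Figure D2:**
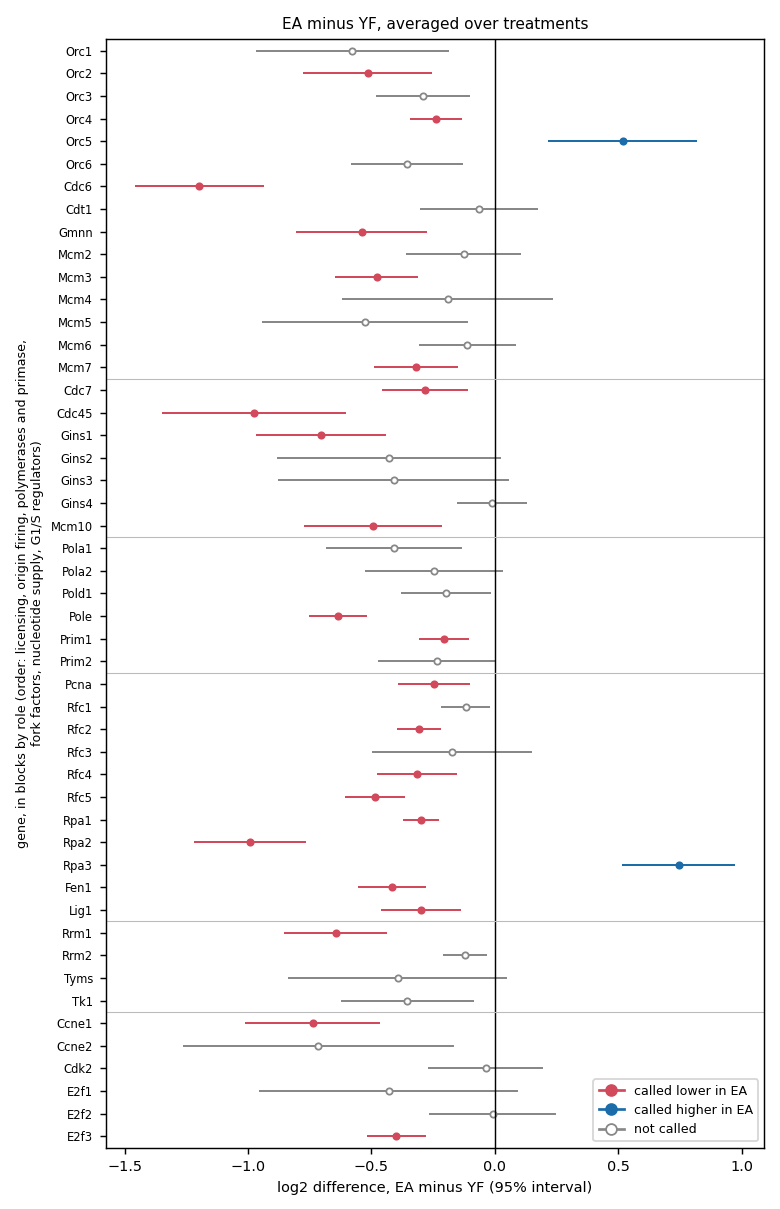
Log2 difference of EA minus YF, averaged over the hormone groups, for each of the 49 genes with its 95% interval from limma, ordered by role. Nearly all points lie left of 0; Cdc6 is farthest left at -1.20, and Rpa3 and Orc5 lie to the right at 0.74 and 0.52.

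Origin firing genes had 4 of 7 called lower, none higher, and a median of -0.43. Cdc45 (probe set 1416575_at), the helicase cofactor, read 7.39 and 7.56 in EA without hormone, 7.84 and 7.42 in EA with hormone, 8.74 and 8.26 in YF without hormone and 8.60 and 8.51 in YF with hormone. The groups did not overlap, and the difference was -0.97 (SE 0.15, limma adjusted p = 0.0103), or 1.96-fold lower in EA. The GINS complex joins Cdc45 on the helicase, and 1 of its 4 genes was called. Gins1 (probe set 1452598_at) read 8.92, 9.20, 9.17 and 8.93 in EA and 9.83, 9.56, 9.81 and 9.84 in YF, which differed by -0.70 (SE 0.10, limma adjusted p = 0.0096) without overlap. In the same complex, Gins2 and Gins3 were at -0.43 and -0.41 with overlapping arrays and did not pass (limma adjusted p = 0.22 and 0.26). Gins4 was at -0.01, with a 95% interval of -0.15 to 0.13. Mcm10, which helps the helicase to unwind, read 9.69, 9.28, 9.29 and 9.49 in EA and 9.81, 9.99, 9.97 and 9.97 in YF, a called difference of -0.49 (SE 0.11, limma adjusted p = 0.0359). The kinase Cdc7 read 9.0, 8.85, 8.80 and 9.05 in EA and 9.23, 9.25, 9.16 and 9.19 in YF, a called difference of -0.28 (SE 0.07, limma adjusted p = 0.0471). In both genes all EA arrays lay below all YF arrays.

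Of the polymerases, Pole, the catalytic subunit of the leading-strand polymerase epsilon, had the smallest adjusted p of all members on brightest probe sets. Pole (probe set 1448650_a_at) read 10.54 and 10.45 in EA without hormone, 10.43 and 10.39 in EA with hormone, 11.03 and 10.97 in YF without hormone and 11.25 and 11.11 in YF with hormone. The EA arrays averaged 10.45 ± 0.06 and the YF arrays 11.09 ± 0.12 (SD, n = 4 each), without overlap, and the difference was -0.64 (SE 0.04, limma adjusted p = 0.00095). Prim1, the catalytic subunit of the primase that starts each new strand, read 12.91, 12.86, 12.92 and 12.82 in EA and 13.07, 12.97, 13.16 and 13.14 in YF and was called lower at -0.21 (SE 0.04, limma adjusted p = 0.0218). The other 4 of the 6 polymerase and primase genes, Pola1, Pola2, Pold1 and Prim2, were at -0.41 to -0.20 and did not pass, with limma adjusted p from 0.063 to 0.25.

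Fork factors had the largest share called of any role, 8 of 11 lower and 1 higher, with a median of -0.30. Of genes above the low group, 16.6% were called lower and 19.7% higher. The median difference was larger for origin firing, so the share called does not rank the roles by size. Within each treatment the median SE was 0.08 for fork factors, against 0.13 for licensing and 0.15 for origin firing, and a smaller SE makes a call easier. The subunits of RPA, which coat single-stranded DNA as a trimer, were called in both directions. Rpa2 (probe set 1416433_at) read 9.28 and 9.24 in EA without hormone, 9.34 and 9.24 in EA with hormone, 10.24 and 9.96 in YF without hormone and 10.56 and 10.30 in YF with hormone. The EA arrays averaged 9.27 ± 0.05 and the YF arrays 10.27 ± 0.25 (SD, n = 4 each), without overlap. The difference was -0.99 (SE 0.09, limma adjusted p = 0.0019), or 1.99-fold lower in EA. Rpa1, the large subunit, read 13.51, 13.49, 13.47 and 13.43 in EA and 13.72, 13.79, 13.80 and 13.80 in YF, which differed by -0.30 (SE 0.03, limma adjusted p = 0.0022), without overlap.

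Rpa3, the small subunit, was the reverse. Its levels (probe set 1448938_at) were 10.72 and 10.60 in EA without hormone, 10.64 and 10.62 in EA with hormone, 9.85 and 10.04 in YF without hormone and 9.69 and 10.02 in YF with hormone. Every EA array was higher, and the difference was 0.74 (SE 0.09, limma adjusted p = 0.0050), or 1.67-fold higher in EA. Rpa3 has 1 probe set among the members, so no other reading of it was at hand.

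The clamp loader genes Rfc2, Rfc4 and Rfc5 were called lower. Rfc5 read 7.84, 7.80, 7.73 and 7.56 in EA and 8.16, 8.12, 8.32 and 8.28 in YF, which differed by -0.49 (SE 0.05, limma adjusted p = 0.0023), without overlap. Rfc4 read 11.66, 11.75, 11.68 and 11.46 in EA and 11.88, 11.79, 12.11 and 12.02 in YF, and Rfc2 and Rfc4 were both at -0.31 (limma adjusted p = 0.0036 and 0.0263). Rfc1, the large subunit, and Rfc3 were at -0.12 and -0.17 and did not pass (limma adjusted p = 0.11 and 0.56). PCNA, the clamp that RFC loads, read 13.35, 13.39, 13.41 and 13.22 in EA and 13.55, 13.51, 13.59 and 13.72 in YF, which differed by -0.25 (SE 0.06, limma adjusted p = 0.0397). Fen1, which trims Okazaki fragments, read 12.96, 13.01, 13.11 and 12.97 in EA and 13.34, 13.38, 13.58 and 13.41 in YF, which differed by -0.42 (SE 0.05, limma adjusted p = 0.0062). Lig1, the ligase that seals them, was called lower at -0.30 (limma adjusted p = 0.0301). None of the called fork factors had overlapping EA and YF arrays.

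**Figure D3:**
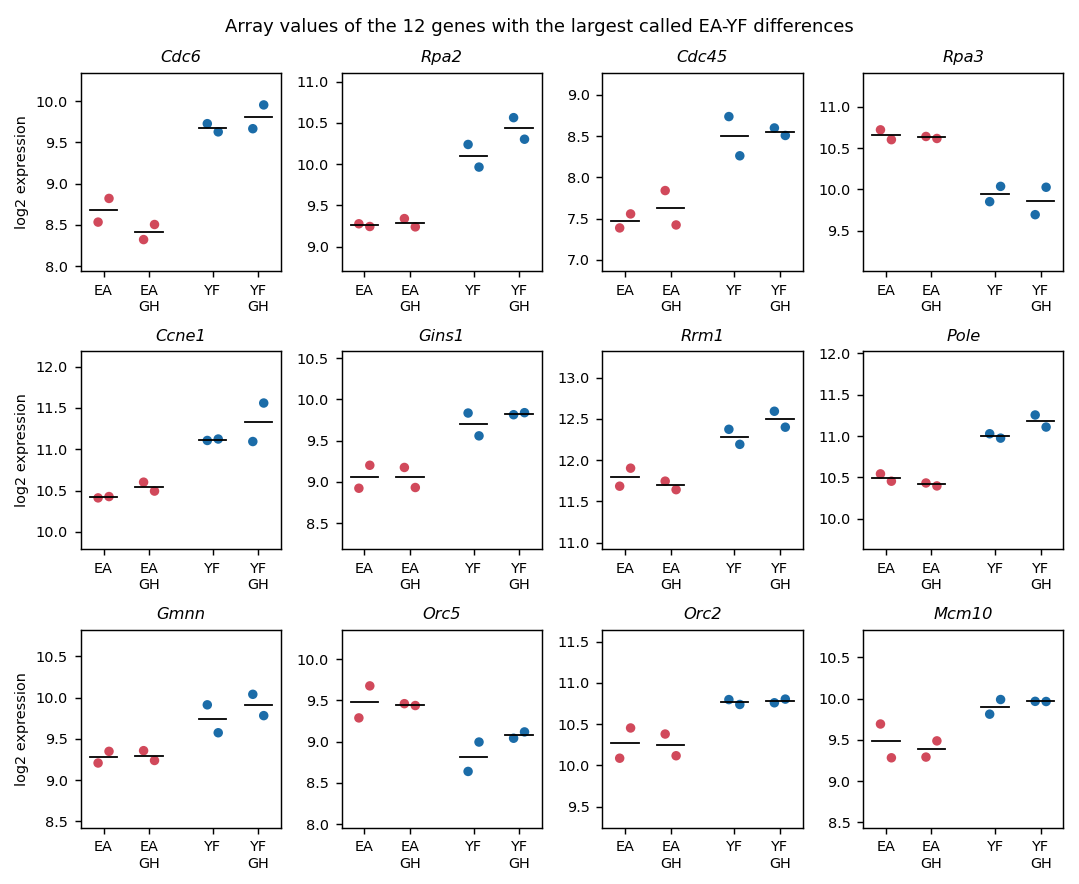
Log2 levels on each array for the 12 genes with the largest called differences between EA and YF on brightest probe sets, 1 panel a gene, each panel spanning 2.4 log2 units; points are single arrays of the 4 groups. The EA and YF arrays do not overlap in any panel, and EA is the higher only for Rpa3 and Orc5.

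Ribonucleotide reductase makes the deoxynucleotides for S phase, and its large subunit Rrm1 was called lower in EA. Rrm1 (probe set 1415878_at) read 11.68 and 11.90 in EA without hormone, 11.74 and 11.64 in EA with hormone, 12.37 and 12.19 in YF without hormone and 12.59 and 12.40 in YF with hormone. The arrays did not overlap, and the difference was -0.65 (SE 0.08, limma adjusted p = 0.0057). Rrm2, the small subunit, read 14.05, 13.97, 14.06 and 14.15 in EA and 14.30, 14.30, 14.05 and 14.08 in YF on its brightest probe set, which ends in _x_at. The unstimulated YF arrays were the highest, and the averaged difference was -0.12 (limma adjusted p = 0.0785). On another probe set, 1416120_at, Rrm2 was called lower at -0.70 (limma adjusted p = 0.0095). Tyms and Tk1, for thymidylate synthesis and thymidine salvage, were at -0.39 and -0.35 and did not pass (limma adjusted p = 0.25 and 0.0915).

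Among the 6 regulators of the G1 to S transition, Ccne1 and E2f3 were called lower. Ccne1, cyclin E1, read 10.41 and 10.43 in EA without hormone, 10.60 and 10.49 in EA with hormone, 11.11 and 11.12 in YF without hormone and 11.09 and 11.56 in YF with hormone. The groups did not overlap, and the difference was -0.74 (SE 0.11, limma adjusted p = 0.0092); on the probe set 1416492_at, whose name lacks the ending of shared probe sets, it was -1.20 (limma adjusted p = 0.0033). E2f3, a transcriptional activator of S phase genes, read 12.12, 12.14, 12.29 and 12.14 in EA and 12.52, 12.53, 12.67 and 12.56 in YF, which differed by -0.40 (SE 0.05, limma adjusted p = 0.0041). Cdk2, the kinase that cyclin E activates, overlapped between mutants and was at -0.04 with a 95% interval of -0.27 to 0.19.

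Ccne2, cyclin E2, turned on a single array. It read 9.93 and 10.05 in EA without hormone, 9.92 and 10.16 in EA with hormone, 11.03 and 10.97 in YF without hormone, and 9.99 and 10.94 in YF with hormone. YF with hormone replicate 1 lay among the EA arrays while the other 3 YF arrays lay above them. The difference of -0.72 did not pass (SE 0.22, limma adjusted p = 0.0950). E2f1 was at -0.43 with overlapping arrays (limma adjusted p = 0.30), and E2f2 lay in the low group on all arrays, at 2.41 to 2.82.

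Promoter sequences of the members with the largest called differences show whether letters of an E2F site stand near the start of transcription. RefSeq (GRCm38.p6) held promoters, from 250 bases before the start to 50 after it, for 40 of the 49 genes, 50 promoters in all. The 160 bases before the start are printed 5′ to 3′ on the gene's strand, in lower case, with capitals marking any of TTCCCGC or TTGGCGC or TTCGCGC or TTGCCGC on either strand. Cdc6, Rpa2, Rpa3 and Rrm1 hold such letters, and Cdc45 and Ccne1 hold none in their whole 300-base promoter.
Cdc6, chr11:98907991-98908150, plus strand: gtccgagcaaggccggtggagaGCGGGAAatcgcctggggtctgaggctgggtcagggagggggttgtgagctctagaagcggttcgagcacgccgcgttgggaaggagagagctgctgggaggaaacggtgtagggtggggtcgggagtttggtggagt
Rpa2, chr4:132768200-132768359, plus strand: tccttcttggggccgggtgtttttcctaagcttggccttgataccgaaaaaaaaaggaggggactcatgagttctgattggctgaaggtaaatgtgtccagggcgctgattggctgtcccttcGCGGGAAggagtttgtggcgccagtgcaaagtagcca
Rpa3, chr6:8259142-8259301, minus strand: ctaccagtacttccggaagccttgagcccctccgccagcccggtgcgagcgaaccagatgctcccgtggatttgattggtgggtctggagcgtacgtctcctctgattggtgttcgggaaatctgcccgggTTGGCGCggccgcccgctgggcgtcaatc
Rrm1, chr7:102441535-102441694, plus strand: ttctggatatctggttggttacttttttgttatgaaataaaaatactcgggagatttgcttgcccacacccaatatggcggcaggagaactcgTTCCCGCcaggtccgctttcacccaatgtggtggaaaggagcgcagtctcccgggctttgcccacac
Cdc45, chr16:18811973-18812132, minus strand: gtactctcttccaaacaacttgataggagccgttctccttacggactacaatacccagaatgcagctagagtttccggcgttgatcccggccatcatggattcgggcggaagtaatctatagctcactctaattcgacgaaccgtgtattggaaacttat
Ccne1, chr7:38107491-38107650, minus strand: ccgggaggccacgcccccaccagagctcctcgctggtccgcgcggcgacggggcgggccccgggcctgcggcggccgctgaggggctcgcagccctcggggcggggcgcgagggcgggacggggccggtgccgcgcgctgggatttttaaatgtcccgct
The letters begin 138 bases before the start in Cdc6, 37 in Rpa2, 29 in Rpa3 and 67 in Rrm1. Rpa3, which was higher in EA, and Rpa2, which was lower, thus both carry them.

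Over all members, 26 of the 40 genes with a promoter (65%) held these 7 letters, and 29 of 50 promoters (58%) did, against 13.6% of 18110 promoters of measured genes and 9.57% of all 32851 promoters. The stricter 8-letter forms TTTCCCGC, TTTGGCGC, TTTCGCGC and TTTGCCGC, which contain the 7-letter forms, were in 16 of 50 member promoters (32%), against 3.21% of promoters of measured genes. CCAAT was in 56% of member promoters, against 37.4%. The STAT letters TTCNNNGAA were in 5 of 50 (10%), against 7.21% of promoters of measured genes. Of the genes called lower in EA, 12 of 19 (63.2%) held the 7 E2F letters, and of those that were not, 14 of 21 (66.7%) did. The 8-letter forms were in 5 of 19 called lower (26.3%) and 11 of 21 others (52.4%). The STAT letters were in 4 of 19 called lower (21.1%) and 1 of 21 others (4.76%), against 8.57% of measured genes with a promoter. A gene counts if any of its promoters holds the letters. By promoter, the STAT letters were in 4 of 28 (14.3%) and 1 of 22 (4.55%). These are small counts, and no such split was tested. A match of letters is a description of the sequence, not a bound site.

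Genes with several probe sets gave a second reading of the difference between mutants. Of the 27 genes with at least 2 probe sets above the low group, all probe sets were below 0 for 24 and signs were mixed for 3, Rfc1, Rfc3 and E2f3. Counting any probe set, 29 genes had a call lower in EA and 3 had 1 higher, against 13.8% and 14.8% of all genes counted so, and no gene had calls in both directions. Rfc1 joined Rpa3 and Orc5: its probe set 1449050_at was called higher at 0.61 (limma adjusted p = 0.0258) while its brightest probe set was at -0.12. For E2f3 a dimmer probe set stood at 0.49 and did not pass (limma adjusted p = 0.10). Second readings were also weaker for some other called genes. Of the probe sets above the low group, 1 of 3 was called for Orc2, 1 of 3 for Rfc2 and 1 of 2 for Prim1. The weakest probe sets of Orc2, Rfc2 and Prim1 stood at -0.02, -0.10 and -0.09. Reading the 12 genes whose brightest probe set ends in _x_at or _s_at from another probe set gave 24 members called lower and 2 higher. Of these calls, 20 were on the same probe set as before, and the rest were on a probe set put in place of the brightest.

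The difference between EA and YF was then read within each treatment. Without hormone, 13 members were called lower in EA and 1, Rpa3, higher (limma), a share of 26.5% lower against 6.74% of all genes and 10.5% of those above the low group; 8.28% and 13.1% were called higher. With hormone, 16 were called lower and 1, again Rpa3, higher, a share of 32.7% lower against 7.03% and 11.1%; 6.50% and 10.6% were called higher. Medians were -0.31 and -0.39. The same 10 genes were lower in both: Cdc6, Mcm3, Pole, Rfc2, Rfc5, Rpa1, Rpa2, Fen1, Ccne1 and E2f3. The counts depend on single arrays. Without hormone, leaving out either EA array of that comparison or YF replicate 1 gave 1 member lower and none higher, where 3.73%, 3.88% and 4.18% of all genes were called lower, so the members' share was then no higher than the background. It gave 4 lower without YF replicate 2 (3.57% of all genes) and 8 lower without either EA array with hormone (5.71%). With hormone, it gave 4 lower without EA replicate 2, against 3.61% of all genes, and 8 lower and 1 higher without YF replicate 1, against 5% lower. Leaving out YF replicate 2 gave 10 lower and 1 higher, against 7.36% lower, and so did leaving out any unstimulated array, against 5.56% to 5.65%.

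Cdc6 was at -1.0 without hormone and -1.40 with it (limma adjusted p = 0.0142 and 0.0056), and Rpa2 at -0.84 and -1.14 (limma adjusted p = 0.0156 and 0.0066). Cdc45 was at -1.03 and -0.92, of which only the first passed (limma adjusted p = 0.0381 and 0.0545). Rrm1 was at -0.49 and -0.80 and passed with hormone only (limma adjusted p = 0.0604 and 0.0146). Gins3 ran from 0.01 without hormone to -0.83 with it, and Mcm4 from -0.45 to 0.07, none of which passed. No member's difference between mutants was shown to depend on hormone: the test of the difference of responses called 0 of 49 by limma, where it called 0.0220% of all genes, and at an unadjusted p under 0.05 it gave 5 members lower and 1 higher. The unadjusted threshold gave 1128 of all 18193 genes lower and 876 higher.

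Growth hormone at 120 minutes left no called change in these genes. In EA cells limma called 0 of 49, against 0.198% of all genes, with 1 member lower and 0 higher at an unadjusted p under 0.05. That threshold gave 778 of all 18193 genes lower and 480 higher. The median response was -0.01, from -0.29 for Gins3 to 0.29 for Cdk2. The 95% interval lay within 0.5 of 0 for 34 members and within 1 for all 49, so a response of more than a doubling was outside the interval of every member. The background is itself small, so a count of 0 among 49 is near it.

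In YF cells the hormone also gave 0 calls of 49 by limma, against 0.198% of all genes, with 2 members lower and 6 higher at an unadjusted p under 0.05. That threshold gave 1179 of all 18193 genes lower and 1387 higher. Of the 10779 genes above the low group, it gave 1066 lower and 1326 higher. The median was 0.12, against 0.05 for genes above the low group, and the interval lay within 0.5 of 0 for 25 members and within 1 for 44. Both arrays with hormone were above both without for 20 members and below for 8. Among the 47 above the low group this was 42.6% above and 14.9% below, against 31.4% and 23.7% of such genes; over all 49 it was 40.8% and 16.3%, against 19.6% and 44.3% of all genes. Rrm2 had the smallest adjusted p: it read 14.30 and 14.30 without hormone and 14.05 and 14.08 with it, which differed by -0.24 (SE 0.05, limma adjusted p = 0.20). Gins4 read 11.17 and 11.09 without hormone and 11.58 and 11.44 with it, which differed by 0.38 (SE 0.08, limma adjusted p = 0.21). Ccne2 was at -0.54 (SE 0.30, limma adjusted p = 0.54) and split by array as given above. Orc1 had the largest response of any member, from 3.77 and 3.96 without hormone to 2.77 and 3.39 with it, at -0.78 inside the low group (SE 0.22, limma adjusted p = 0.31). Among genes above the low group, the largest responses of other roles were in YF too. Mcm4 read 12.81 and 12.71 without hormone and 11.99 and 12.52 with it, at -0.51. Gins3 read 9.34 and 8.83 without hormone and 9.45 and 9.84 with it, at 0.56. Both hormone arrays were thus lower for the helicase subunit Mcm4 and higher for the GINS subunit Gins3, but the replicates differed about as much as the groups. Pola1 read 10.91 and 10.68 without and 10.30 and 10.68 with it, at -0.31, and the clamp loader gene Rfc3 read 9.89 and 9.48 without and 10.23 and 9.91 with it, at 0.38. None of these passed. Without YF with hormone replicate 2, Ccne2 was the 1 member called, at -1.01 (SE 0.12, limma adjusted p = 0.0482), where a single array at 9.99 stands for the hormone group. That fit called more probe sets over all, 176 lower and 499 higher against 23 and 58 with all arrays, and 0.489% of all genes lower. Averaged over mutants, the hormone response also gave 0 calls of 49 by limma, against 0.319% of all genes, with a median of 0.04.

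**Figure D4:**
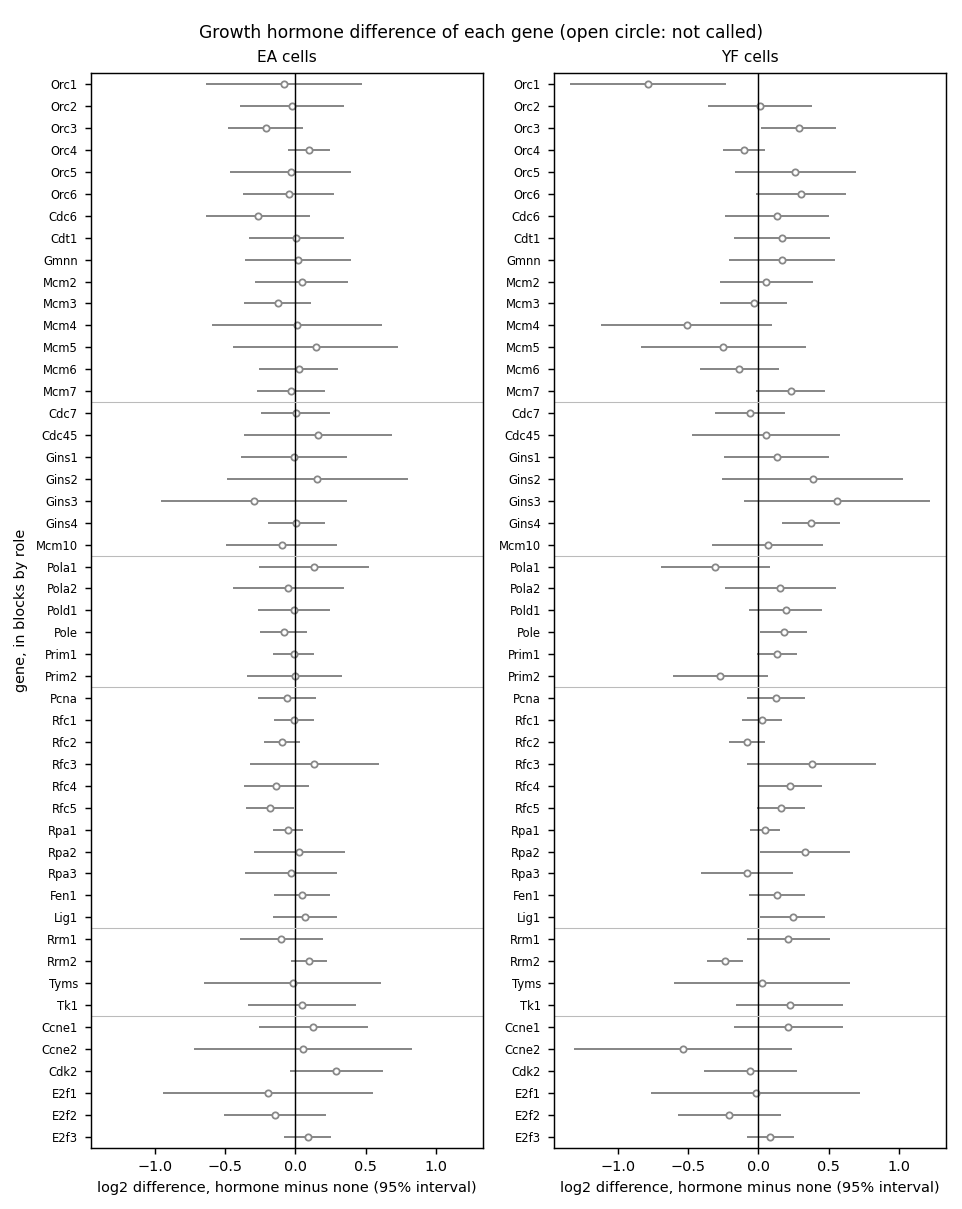
Log2 difference of growth hormone minus no stimulation for the 49 genes in EA cells and in YF cells, with 95% intervals from limma. Points scatter on both sides of 0 in EA (median -0.01) and lie mostly to the right in YF (33 of 49 above 0, median 0.12), and no gene was called in either.

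Other genes of the pathway were read from lists of genes outside the 49. Of 34 measured replication genes (36 listed), 10 were called lower in EA and 1 higher by limma in the averaged comparison, with a median of -0.24. The share of this list called lower was 29.4%, against 10.5% of all genes and 16.6% of genes above the low group. The listed genes called lower were led by Chaf1b, a histone chaperone subunit at the fork, at -1.61, Clspn (claspin, a fork checkpoint protein) at -1.26, and the histone chaperones Asf1b and Nasp at -1.04 and -0.89 (limma adjusted p = 0.0091, 0.00084, 0.00079 and 0.0020). The 1 higher gene was Pole4, a small subunit of polymerase epsilon, at 0.80 (limma adjusted p = 0.0018), while the catalytic Pole was lower. Mitotic genes had 2 of 16 measured lower, Cdk1 at -0.37 and Top2a at -0.24 (limma adjusted p = 0.0145 and 0.0269), none higher, and a median of -0.20; this share of 12.5% lay between the 10.5% of all genes and the 16.6% of genes above the low group. Mki67, a proliferation marker, was at -0.07 and did not pass (limma adjusted p = 0.64).

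Regulators of the G1 to S step outside the 49 went both ways, with 7 of 27 called lower in EA (25.9%), 8 called higher (29.6%) and a median of -0.01. Of all genes 10.5% were called lower and 12.3% higher, and of genes above the low group 16.6% and 19.7%. Lower in EA were E2f7 at -0.88, the E2F partner Tfdp2 at -0.84, the Cdk2-activating phosphatase Cdc25a at -0.74 and the ubiquitin ligase subunit Skp2 at -0.67 (limma adjusted p = 0.0023, 0.0018, 0.0131 and 0.0049). Higher in EA were the Cdk inhibitors Cdkn1c at 2.15, with group means of 6.67 and 6.52 against 4.26 and 4.64, and Cdkn1b at 0.83 (limma adjusted p = 0.00092 and 0.0043). The pocket proteins Rbl1 and Rbl2, which hold E2F factors in check, were higher at 0.33 and 0.47 (limma adjusted p = 0.0086 and 0.0224). Cdc25a, Skp2, Rbl1 and Rbl2 were named after their values were seen. Further genes of the list were called in both directions and are not named, so the named genes do not stand for the list. Cdk6, a kinase acting earlier in G1, was the 1 gene of this list called for the hormone, in EA cells, where its mean was 8.95 without and 10.22 with hormone, which differed by 1.27 (limma adjusted p = 0.0400), in a comparison that called 0.198% of all genes.

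**Figure D5:**
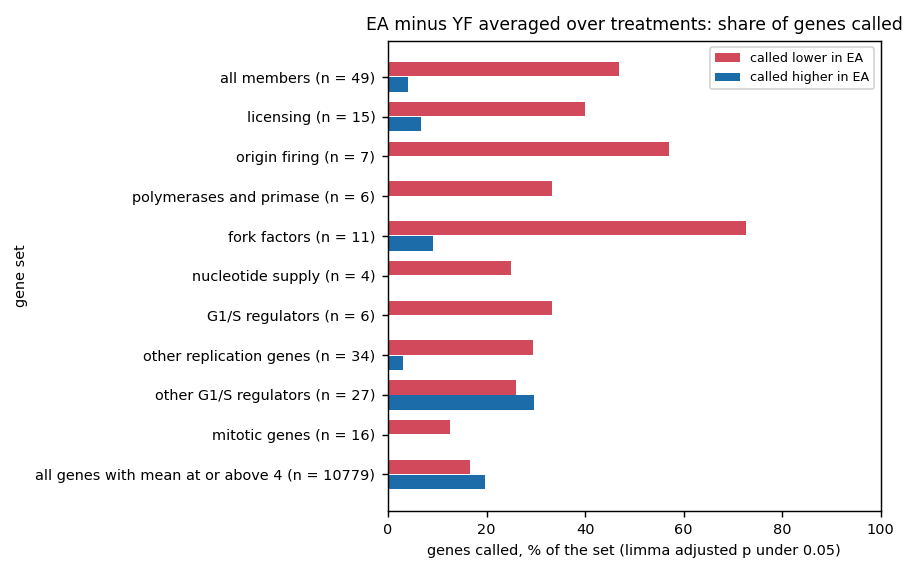
Bars give the percent of genes called lower and higher in EA than in YF (limma, hormone groups averaged) for the 49 genes, the other lists and all genes with a mean of 4 or more. The 49 genes have 46.9% lower and 4.08% higher, against 16.6% and 19.7% of genes above the low group.

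Cell markers moved between the mutants beside these differences. Of the 10 fibroblast markers, Col1a1, Col1a2, Col3a1, Vim and Fn1 were at 14.38 to 14.98 in all 4 groups. Among these, Col1a1 and Fn1 were called lower in EA, at -0.24 and -0.15 (limma adjusted p = 0.0315 and 0.0149). Over the whole list 5 of 10 were called lower in EA and none higher, where 10.5% of all genes were called lower and 12.3% higher. The largest differences were Thy1 at -4.96 (7.64 and 7.60 in EA, 12.68 and 12.49 in YF) and Dcn at -4.45 (3.74 and 2.92 in EA, 7.41 and 8.15 in YF). Lum was called lower at -0.92 but lay below 4 in all groups, as Dcn did in EA. Pdgfra and Pdgfrb stood at 0.04 and 0.28 and did not pass (limma adjusted p = 0.76 and 0.14). The mean over the list was 10.98 to 11.13 on EA arrays and 12.02 to 12.21 on YF arrays. That mean includes the large differences of Thy1 and Dcn, so it does not stand for each marker. Of the 6 macrophage and leukocyte markers, Ptprc, Adgre1, Itgam and Tyrobp lay below 4 in all groups. The other 2 markers of that list did not: Csf1r had group means of 8.12 and 8.49 in EA and 8.40 and 8.97 in YF and did not pass (limma adjusted p = 0.31). Cd68 was higher in EA at 3.15 (11.24 and 11.01 in EA, 7.66 and 8.28 in YF), and the mean over the 6 leukocyte markers was 4.75 to 4.88 in EA and 4.23 to 4.45 in YF. Of 5 endothelial markers, 4 lay below 4 in every group and Tek was lower in EA at -1.58, and the list mean was 3.32 to 3.44 in EA and 3.61 to 3.76 in YF. All 6 epithelial markers lay below 4; Krt18 was called higher in EA there, at 0.39 (limma adjusted p = 0.0364), and the list had a mean of 2.32 to 2.34 in EA and 2.23 to 2.28 in YF. The part of these differences in the levels of the replication genes was not tested.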

How the data were processed

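RNA from 8 samples was measured on Affymetrix expression arrays, 2 for each of 4 groups, taken from the labels. The deposited table holds log2 expression values per probe set; the submitters' processing notes name GCOS and RMA, without order or settings, and RMA's multi-array normalization can shrink differences shared by all probe sets. No further normalization was applied, and no detection calls were used, so folds inside the low group (mean below 4) are uncertain. The number of arrays limits the precision.

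Of 45101 probe sets, 64 controls were left out. In the platform annotation 34945 carried 1 gene symbol, 932 several and 9160 none; 34741 of the first kind were found in RefSeq, where 0 symbols differed. limma 3.58.1 (R 4.3.3; lmFit, eBayes) fitted 4 group means to all 8 arrays, with 4 residual degrees of freedom, and p-values of the 7 contrasts were Benjamini-Hochberg adjusted over 45037 probe sets. The script was tested on simulated data. A gene was represented by its brightest probe set. Array values are given for called members, up to 4 per role and contrast, and for the largest mutant and hormone difference of each role; up to 4 called genes are named per other list, and further genes (Cdt1, Gins4, Cdk2, Rpa1, Pcna, Rbl1, Rbl2, Cdc25a, Skp2, Pole4, Mki67) were named after their values were seen. The members and lists were chosen with earlier results of these data known. Alternatives were the normalization, filter, probe set rule, replicate block and each array left out.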

Additional observations from a re-analysis of the deposited data

How the results depend on the processing

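The 56 calls made with all arrays, each a member in 1 comparison, were read again under the alternatives, which gave 815 values. None of these turned in sign (0 reversed), and 549 of them were still called. The filter, the replicate block and leaving out an array outside the comparison do not change the log2 difference. A turn of sign was not possible there, so the count of 0 is weak support. Of the 25 members called in the averaged comparison of mutants, 14 were called under all 14 alternatives: 13 lower (Cdc6, Mcm3, Cdc45, Gins1, Pole, Rfc2, Rfc5, Rpa1, Rpa2, Fen1, Rrm1, Ccne1 and E2f3) and 1 higher (Rpa3); the other 11, Orc5 among them, were lost in at least 1. That count was 16 to 23 with an array left out. Without hormone, 14 members called became 7 with arrays centred on their median and 9 with only the arrays of the comparison (5.61% and 5.6% of all genes lower), and 1 to 14 with an array left out; the median of -0.31 became -0.23 over all probe sets. With hormone, 17 became 11 with centred arrays and 5 with only the arrays of the comparison (6.26% and 3.89% of all genes lower), and 4 to 14 with an array left out. The hormone count of 0 in YF became 1 at most with an array left out, and the other hormone counts stayed 0 under the alternatives run. The replicate numbers were not shown to pair the samples: same-numbered arrays of EA without and with hormone deviated with a correlation of -0.27 and those of YF with 0.18; EA and YF with hormone gave 0.43, EA and YF without hormone -0.09, EA without and YF with hormone -0.38, and EA with and YF without hormone 0.04. With the replicate block, members called were 10 without hormone, 15 with hormone and 22 averaged. There 5.78%, 6.06% and 9.34% of all genes were called lower. An added fit, chosen after seeing the data, with the numbers of EA without hormone crossed gave 16, 23 and 27. Of all genes, that fit called 7.74%, 9.12% and 11.9% lower, so the background rose as well. Probe sets in the low group have no known scale, and with 2 arrays a group a missed call does not show that a gene did not differ.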
